A study of Mus musculus with 32 samples.

Results

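C/EBPβ belongs to the basic leucine zipper proteins and binds as a dimer to DNA at enhancers and promoters of hepatocytes, where it takes part in metabolic and acute-phase gene control. The glucocorticoid receptor (GR) binds DNA after it meets its ligand, and many of its sites lie in chromatin that other factors already hold accessible. A DNase I hypersensitive site (DHS) is a stretch of such accessible chromatin. The regions described here are the C/EBPβ peaks of vehicle-treated mouse liver that have no counterpart in the peak list made after dexamethasone. They were chosen by identifier: an interval of the vehicle list is a member when its identifier is not in the dexamethasone list. This held for 2401 of the 22714 vehicle peaks (10.6%), out of 27793 C/EBPβ peaks in the merged set of both lists (8.64%). The other peaks of the merged set were 20313 in both lists and 5079 in the dexamethasone list only.

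All animals were adrenalectomized male C57BL/6 mice aged 8 weeks. The treated group received an intraperitoneal dose of dexamethasone, a synthetic GR ligand, of 1 mg/kg as a cyclodextrin complex in 300 ul of saline, and the vehicle group received cyclodextrin. Livers were taken after 1 h. C/EBPβ ChIP-seq, GR ChIP-seq and DNase-seq had 2 samples per treatment. The results are 1 interval list per treatment for C/EBPβ and for DNase-seq and 1 GR list that names no treatment, and none of these lists carries replicates, counts or scores. Without adrenal glands the mice make little corticosterone of their own. The labels do not say whether replicates came from separate mice. Whole liver holds several cell types, so fewer cells with binding and less binding per cell cannot be told apart. Read depth is unknown, and the treatment difference has no replicate check. The intervals in parentheses below are 95% Wilson intervals for shares and 95% Newcombe intervals for differences of shares. They cover counting error only, they compare classes of regions within these lists, and no p-value is given.

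The label "lost after dexamethasone" rests on list membership alone. Both C/EBPβ lists draw on a common set of identifiers, and no intervals of the merged set overlap each other. That 0 of 2401 members overlapped a dexamethasone C/EBPβ peak by position thus follows from how the lists are built. A dexamethasone C/EBPβ peak lay within 500 bp of 143 members. All members were 150 bp wide, and so were all dexamethasone-only peaks. Peaks of both lists had a median of 155 bp (quartiles 152 and 160 bp) and the same coordinates in each list. The lists carry no peak height, so how near each member came to being called after dexamethasone was not analysed here. "Vehicle-only peak" is used below in this sense.

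Members lay on all chromosomes. On chromosomes 1 to 19 and X the vehicle-only share of the vehicle list ranged from 8.20% on chromosome 17 (68 of 829 peaks) to 14.2% on chromosome X (43 of 302 peaks), with a median of 10.8%. The interval of chromosome X (10.7 to 18.6%) was the only one of these lying above the share of the whole list, 10.6%, and that of chromosome 17 (6.52 to 10.3%) lay below it. The share of dexamethasone-only peaks in the dexamethasone list was 23.3% on chromosome 17 and 23.1% on chromosome X, the highest of these 20 chromosomes, and 16.6% on chromosome 3, the lowest. Chromosome 17 was thus lowest for peaks that left the list and highest for peaks that entered it, but chromosome X was high for both. The intervals of the 20 chromosomes were not adjusted for their number. Chromosome Y had 7 vehicle peaks and 1 member.

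**Figure D1:**
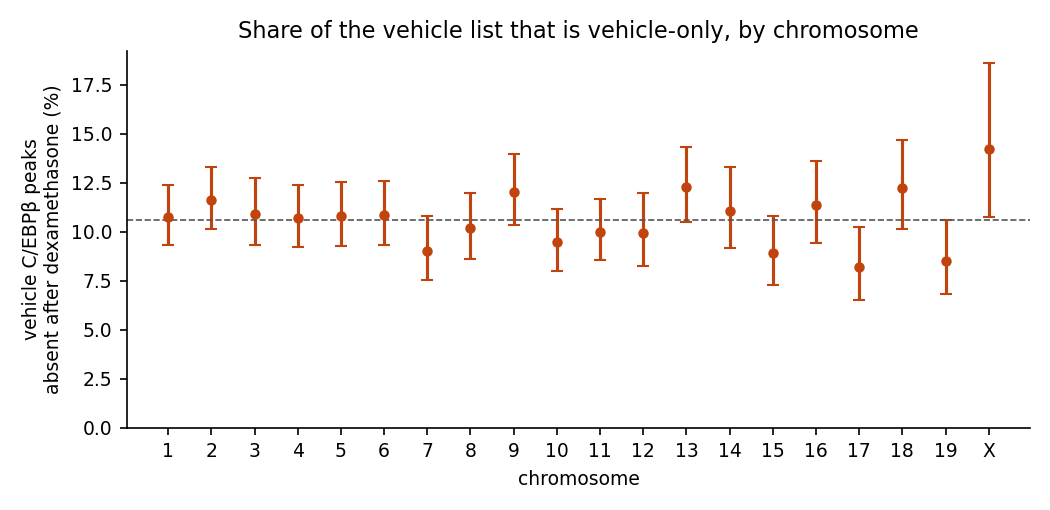
Share of vehicle C/EBPβ peaks (%) that are absent from the dexamethasone list, for each chromosome, with 95% Wilson intervals as bars and the share of the whole list as a dashed line. Most points sit near 10.6%, chromosome 17 is lowest at 8.20% and chromosome X highest at 14.2%.

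Accessibility was read from DNase-seq, which the choice of members did not use. Most vehicle-only C/EBPβ peaks were in chromatin that was a DHS in both treatments, but a smaller share than in the other C/EBPβ classes. A DHS of both lists covered 1283 of the 2401 (53.4%, 51.4 to 55.4), a vehicle DHS but no dexamethasone DHS 366 (15.2%, 13.9 to 16.7), a dexamethasone DHS but no vehicle DHS 85 (3.54%, 2.87 to 4.36), and no DHS 667 (27.8%, 26.0 to 29.6). At the first of these groups the C/EBPβ peak was no longer listed while a DHS was called at its position before and after hormone. A DHS of both lists covered 81.3% of the both-list peaks and 65.9% of the dexamethasone-only peaks.

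Compared with C/EBPβ peaks of both lists, members were less often accessible. They lay in a vehicle DHS 15.9 points less often (68.7% against 84.5%, difference -15.9, -17.8 to -14.0), below the 82.9% of all vehicle C/EBPβ peaks. The share with no DHS of either list was 17.3 points higher (27.8% against 10.5%, 15.5 to 19.2), and 12.3% of all vehicle peaks had none. Each of these differences had the same sign on 20 of 20 chromosomes. With DHS above the median width alone, they were -24.7 points (-26.7 to -22.6) in a vehicle DHS and 31.0 points (29.0 to 33.1) in no DHS. That setting counts a peak in a narrow DHS as lying in none, so it mixes DHS width with DHS presence. Vehicle DHS that covered members had a median width of 598 bp, and those that covered both-list peaks 690 bp. Against dexamethasone-only peaks, which have the same width of 150 bp, the vehicle DHS share differed by 1.21 points (-1.07 to 3.45), an interval that spans 0, and it became -14.0 points (-16.3 to -11.6) when DHS above the median width alone were counted. Dexamethasone-only peaks more often had a DHS of some kind, with 14.9% in none, so the share without a DHS was 12.9 points higher for members (10.9 to 15.0), and 30.9 points higher (28.5 to 33.15) with wide DHS alone. Members were the class most often outside any DHS.

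**Figure D2:**
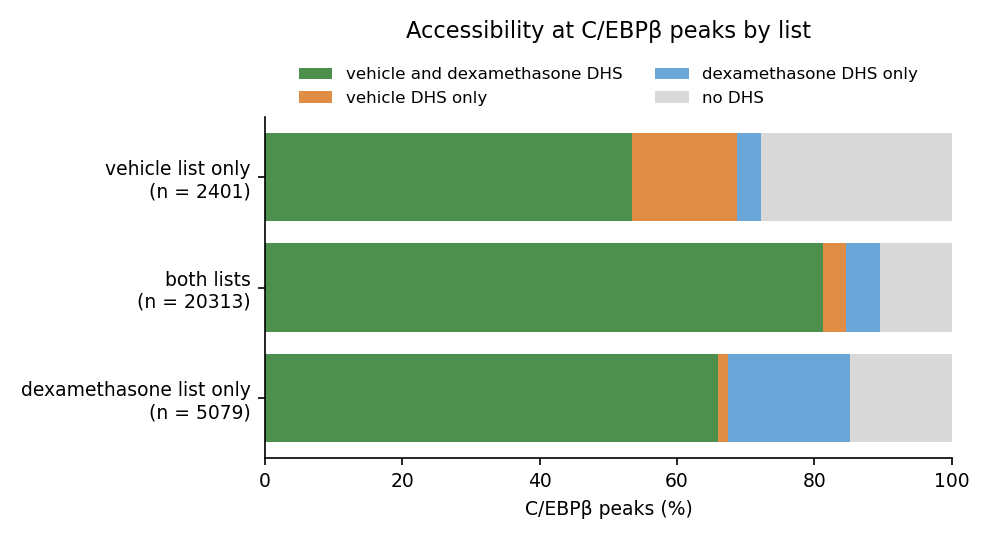
Shares (%) of the 3 classes of C/EBPβ peaks that lie in a DHS of both treatments, of the vehicle list only, of the dexamethasone list only, or in no DHS. Vehicle-only peaks have the largest part without a DHS, 27.8%, and the largest part in a vehicle DHS alone, 15.2%.

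For a minority of members the whole accessible site was absent from the dexamethasone list too. A vehicle-only DHS, one that shares no base with any dexamethasone DHS, held 334 members (13.9%, 12.6 to 15.4). It held 600 of the peaks in both lists (2.95%, 2.73 to 3.20), a difference of 10.96 points (9.61 to 12.4) that was positive on 20 of 20 chromosomes, and it held 4.11% of all vehicle C/EBPβ peaks. With DHS above the median width alone the difference was 5.13 points (3.81 to 6.56). That setting dropped narrow dexamethasone DHS too, so a wide vehicle DHS that overlapped only narrow ones was counted as vehicle-only. It thus does not follow the definition above. Counted among peaks in a vehicle DHS, 334 of 1649 members (20.3%, 18.4 to 22.3) and 600 of 17174 peaks of both lists (3.49%, 3.23 to 3.78) were in a DHS that the dexamethasone list did not have, a difference of 16.8 points (14.9 to 18.8). The mirror image was counted among dexamethasone-only peaks: 777 of the 4244 in a dexamethasone DHS (18.3%, 17.2 to 19.5) lay in a dexamethasone-only DHS, and the difference between the share of members and this share was 1.95 points (-0.271 to 4.25). For both-list peaks in a dexamethasone DHS it was 926 of 17531 (5.28%). The backgrounds were unlike: 8488 of 56794 vehicle DHS (14.9%) were vehicle-only, and 15076 of 63473 dexamethasone DHS, a larger share, were dexamethasone-only. The 2 shares are thus not equal against their backgrounds.

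Seen from the accessible sites, 1632 of the 56794 vehicle DHS (2.87%) held a member. Of these, 1615 held 1 member and 17 held 2. For 1495 (91.6%), called member-only DHS below, no other class of C/EBPβ peak was present (1479 with 1 member and 16 with 2), while 120 (7.35%) also held a peak of both lists and 19 (1.16%) a dexamethasone-only peak. A member thus seldom shared its site with a retained peak. Of such shared sites few were absent after dexamethasone: 1 of the 118 vehicle DHS with a member and a both-list peak but no dexamethasone-only peak was vehicle-only (0.847%, 0.150 to 4.645). Of the 1495 member-only DHS, 332 were vehicle-only (22.2%, 20.2 to 24.4), against 14.9% of all vehicle DHS and 595 of 15711 with both-list C/EBPβ alone (3.79%, 3.50 to 4.10). Median width was 1072 bp for the 118 shared DHS and 581 bp for the 1495 member-only DHS, and the part of width in that contrast was not tested.

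DHS without any C/EBPβ peak were also often absent. Of 36140 such vehicle DHS, 7500 were vehicle-only (20.8%, 20.3 to 21.2), 1.45 points below member-only DHS (interval of the difference -0.623 to 3.67, which spans 0). The difference from both-list C/EBPβ was also seen at like widths. Absence from the dexamethasone list fell steeply with the width of the vehicle DHS, and in 10 of 10 width deciles it was more frequent for DHS with a member than for DHS with a both-list peak and no member. In the first decile (median width 321 bp) 61 of 98 member DHS were vehicle-only (62.2%, 52.4 to 71.2) and 135 of 440 with both-list C/EBPβ (30.7%, 26.6 to 35.1). In the fifth decile (575 bp) these shares were 19.9% (40 of 201) and 3.59% (53 of 1478), and in the tenth (1189 bp) 1.10% (2 of 182) and 0.215% (6 of 2790). The intervals of both classes stood apart in 9 of the 10 deciles. The odds ratio was 6.66 without strata and 4.98 with the 10 width strata. For DHS with no C/EBPβ the share was below that of member DHS in each decile, but inside its interval in 7 of 10.

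**Figure D3:**
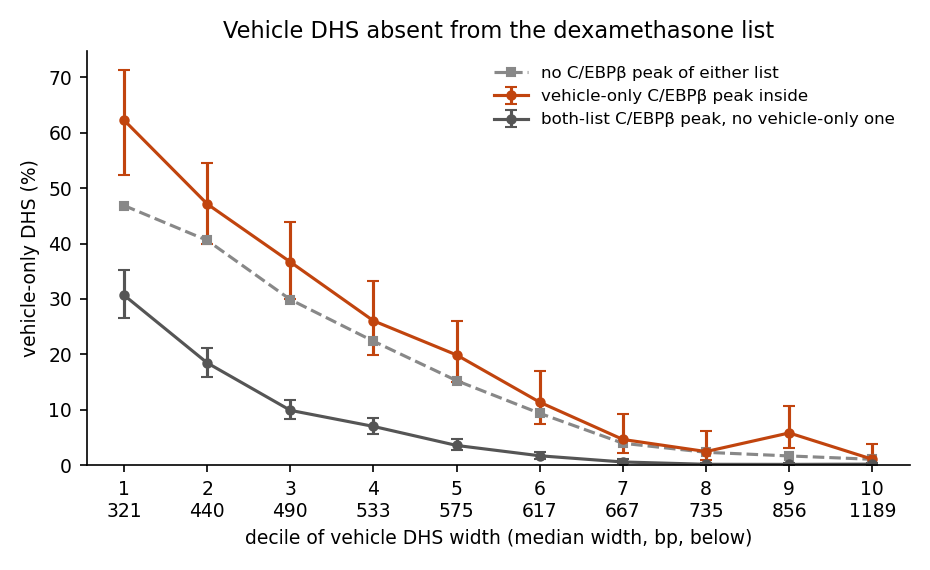
Share (%) of vehicle DHS that are absent from the dexamethasone list, by decile of vehicle DHS width, for sites with a vehicle-only C/EBPβ peak, with a both-list peak and no vehicle-only one, and with no C/EBPβ peak. Bars are 95% Wilson intervals. Sites with a vehicle-only peak fall from 62.2% in the narrowest decile to 1.10% in the widest and run above those with a both-list peak throughout.

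Few wide member DHS were absent after dexamethasone, and the 3 widest of them are given here. One spanned chr5:125861872-125864100 (2228 bp), another chr9:95442472-95443735 (1263 bp) and the last chr11:35853864-35854820 (956 bp) in mm9. Each held 1 member, no both-list peak and no GR peak. For comparison, the 333 vehicle-only DHS with a member had a median width of 484 bp, and the member DHS that overlapped a dexamethasone DHS one of 634 bp. Over all vehicle DHS these medians were 453 and 625 bp.

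DHS that persisted were more often narrower than wider after dexamethasone where they held a member. Width is the only graded value in these lists. It was compared for DHS that overlapped exactly 1 DHS of the other list, as the log2 ratio of dexamethasone over vehicle width, where 0 means equal widths. Among 1210 such DHS with a member the median was -0.12 (quartiles -0.31 and 0.05), with median widths of 625.5 bp in vehicle and 570 bp after dexamethasone. Of these, 841 (69.5%, 66.85 to 72.0) were narrower after dexamethasone, against 48.5% of all 44381 matched DHS, whose median was 0.01. The median was below 0 on 20 of 20 chromosomes for DHS with a member and on 2 of 20 for all matched DHS. Among DHS without a GR peak, however, it was below 0 on 19 of 20 with both-list C/EBPβ alone and on 18 of 20 with no C/EBPβ. The sign by chromosome was thus not particular to members.

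Taken without regard to GR, the shift was seen where a member was present and not with the other C/EBPβ classes alone. Matched DHS that held members and no other class had a median log2 width ratio of -0.13 (1098 DHS), those with both-list C/EBPβ alone 0.02 (14050), those with dexamethasone-only C/EBPβ alone 0.09 (2706), and those with none -0.0024 (26073). Narrower DHS made up 69.5% of these member-only DHS, 46.7% with both-list C/EBPβ alone (difference 22.7 points, 19.8 to 25.5) and 50.2% with none (difference 19.3 points, 16.45 to 22.02). In each of 10 deciles of vehicle width the median of member-only DHS was the lower one, by 0.07 to 0.19 against DHS with no C/EBPβ and by 0.10 to 0.23 against both-list C/EBPβ. The deciles are given because the ratio moved with vehicle width in every class, from 0.35 in the narrowest decile to -0.05 in the widest for DHS with no C/EBPβ. For member-only DHS the median was 0.15 in the narrowest decile (90 DHS), which were thus wider on balance. It was -0.02 in the next decile and -0.12 in the widest. Of 94 matched DHS with a member and a both-list peak, 65 (69.2%, 59.2 to 77.6) were narrower.

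**Figure D4:**
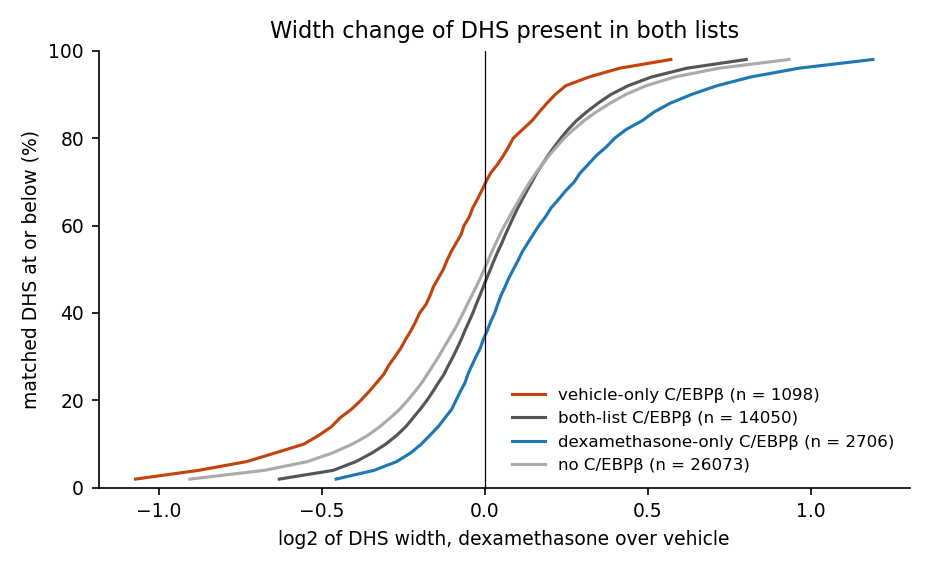
Cumulative share (%) of matched DHS at or below each log2 width ratio of dexamethasone over vehicle, for DHS with 1 class of C/EBPβ peak or none (2nd to 98th percentile). The curve for vehicle-only C/EBPβ lies to the left, with 69.5% of DHS below 0, and that for dexamethasone-only C/EBPβ to the right.

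GR presence went with width as well. Member-only DHS without a GR peak had a median log2 width ratio of -0.13 (1053 DHS), while the 45 with a GR peak had one of 0.08, and 18 of these 45 were narrower (40.0%, 27.0 to 54.55). For both-list C/EBPβ alone the medians were -0.02 without GR (8789 DHS) and 0.08 with GR (5261 DHS). For DHS with no C/EBPβ they were -0.01 without GR (24360 DHS) and 0.20 with GR (1713 DHS). Without GR, narrower DHS were 70.8% of member-only DHS and 54.1% of those with both-list C/EBPβ, a difference of 16.6 points (13.6 to 19.5). Member-only DHS with GR were thus not narrower on balance, but 18 of the 26 with a member, a both-list peak and GR were (69.2%, 50.01 to 83.5).

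In all 3 C/EBPβ classes the DHS edge farther from the peak moved inward more, or outward less, than the nearer one. In 1074 matched DHS with a single C/EBPβ peak that was a member and off the centre, the DHS edge nearer to the peak moved by a median of -10 bp (negative values are inward after dexamethasone) and the farther edge by -38.5 bp. The near edge moved inward in 56.1% and the far edge in 71.2%. The near edge retreated less than the far one, or advanced more, in 662 DHS, and did the opposite in 404. With a both-list peak the medians were 15 bp (near) and -6 bp (far) in 13120 DHS, and with a dexamethasone-only peak 29 and 14 bp in 2547 DHS. The near edge lay further out than the far one by a median of 30, 23 and 17 bp in these 3 classes, so that order was common to all 3. Near and far were named from edges of the same DHS whose shift was measured, so the order is partly built into the comparison. No conclusion about members is drawn from it. Within their vehicle DHS, members were a median of 47 bp from the centre (quartiles 22 and 110.5 bp), and both-list peaks 53 bp.

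Single sites show the range. At chr2:60421244-60421394 the vehicle DHS spanned 1101 bp and the dexamethasone DHS, at chr2:60421486-60421737, was narrower (log2 ratio -2.13) and no longer reached the C/EBPβ position. The site at chr10:126135261-126135411 went from 491 to 150 bp (-1.71) and no longer reached the peak either, whereas at chr15:5901000-5901150 (548 to 150 bp, -1.87), chr7:3331540-3331690 (884 to 272 bp, -1.70) and chr2:73423848-73423998 (798 to 259 bp, -1.62) the remaining DHS still overlapped it. None of these 5 DHS held a GR peak, and the nearest both-list C/EBPβ peak was between 23352 and 214311 bp away. The first 3 of these sites by ratio ended at widths that recur in the DHS lists, and whether that bears on their ratios was not tested.

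At the other end, 365 of the 1210 matched DHS with a member (30.2%) were wider after dexamethasone, and the 3 most widened are given here. The DHS around chr1:157921958-157922108 went from 257 to 610 bp (log2 ratio 1.25), that around chr15:27929091-27929241 from 245 to 573 bp (1.23), and that around chr8:89019127-89019277 from 324 to 701 bp (1.11). Only the last held a GR peak, and its dexamethasone DHS also held a dexamethasone-only C/EBPβ peak. All started narrow, against a median of 625.5 bp for matched DHS with a member. The DHS on chromosomes 1 and 15 held no C/EBPβ peak of another class.

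GR was rare at members. A GR peak overlapped 37 of the 2401 (1.54%, 1.12 to 2.12), while 26.0% of all vehicle C/EBPβ peaks and 26.2% of the merged set had one. The share was 28.9% for peaks of both lists (difference -27.3 points, -28.1 to -26.5) and 27.5% for dexamethasone-only peaks (difference -26.0 points, -27.3 to -24.6), with the same sign on 20 of 20 chromosomes. The difference was also present within a single accessibility state: among peaks in a DHS of both lists, 35 of 1283 members (2.73%, 1.97 to 3.77) and 5686 of 16517 both-list peaks (34.4%, 33.7 to 35.2) had GR, a difference of -31.7 points (-32.75 to -30.4). The remaining 2 of the 37 lay in a vehicle DHS that had no dexamethasone counterpart at the peak. Outside DHS no member had GR (0 of 667, with a 95% Wilson upper limit of 0.573%; taking 3 counts as the limit that a count of 0 allows gives 0.450%), and 14 of 2125 both-list peaks outside DHS did (0.659%).

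Members were also farther from GR peaks. The median distance from a member to the nearest GR peak was 54407 bp (quartiles 12062 and 181524 bp), against 8996 bp for both-list peaks and 7290 bp for dexamethasone-only ones. A GR centre lay within 500 bp of 69 members (2.88%), within 1 kb of 116 (4.83%) and within 10 kb of 537 (22.4%). The same limits took in 32.1%, 34.6% and 51.1% of both-list peaks. Among peaks with no GR centre within 1 kb, one lay within 10 kb of 421 of 2284 members (18.4%, 16.9 to 20.1) and 3350 of 13271 both-list peaks (25.2%, 24.5 to 26.0), so members had GR less often in this range too. Where a member and a GR peak did overlap, the median distance between centres was 35 bp (37 pairs) and 40.5% lay within 20 bp. The overlapping both-list pairs had a median of 18 bp, with 54.0% within 20 bp.

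**Figure D5:**
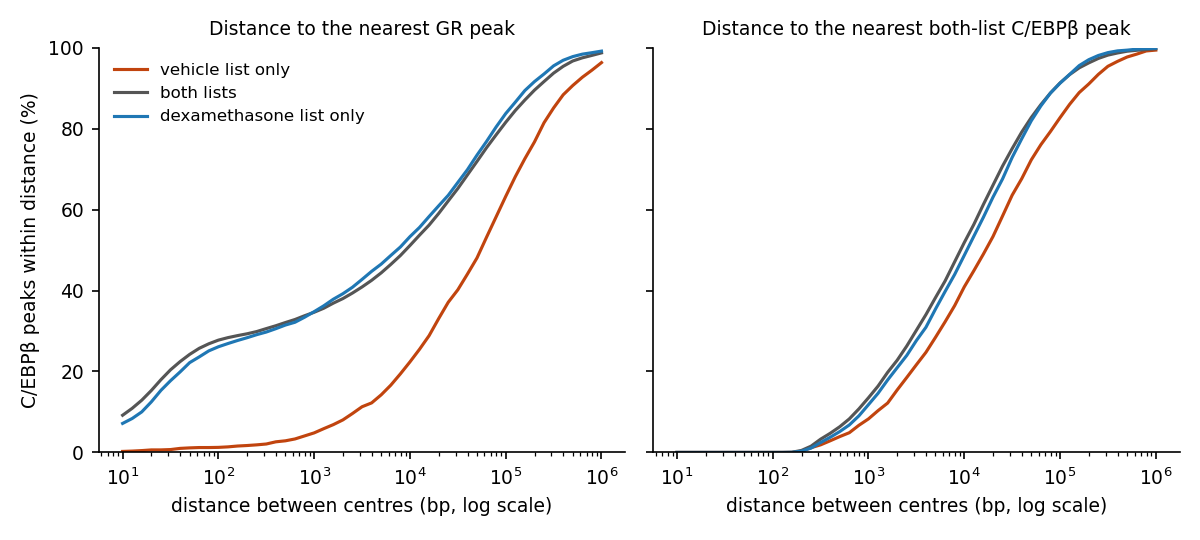
Cumulative share (%) of C/EBPβ peaks of each class that have a GR peak (left) or a both-list C/EBPβ peak (right) within a given distance between centres (bp, log scale). At 1 kb the GR curve of vehicle-only peaks is at 4.83%, and that of both-list peaks at 34.6%.

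GR was then counted across the whole accessible site. Of the 1632 vehicle DHS with a member, 80 held a GR peak anywhere (4.90%), and 34 of these 80 also held a both-list C/EBPβ peak. Among member-only DHS the share was 45 of 1495 (3.01%, 2.26 to 4.004). DHS with no C/EBPβ peak had GR in 5.12%, and DHS with both-list C/EBPβ alone in 36.2%. Against DHS with no C/EBPβ, the share differed by -2.11 points (-2.90 to -1.09) for member-only DHS and by -0.220 points (-1.19 to 0.959) for all DHS with a member, the latter interval spanning 0.

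C/EBPβ peaks that left the list seldom had a gained peak next to them. A dexamethasone-only C/EBPβ peak was within 500 bp of 13 members (0.542%), within 1 kb of 36 (1.5%) and within 10 kb of 213 (8.88%), with a median distance of 131708 bp. For both-list peaks the share within 10 kb was 17.3% and the median 68094 bp. The 3 closest pairs were at chr11:82734200-82734350 with a gained peak 186 bp away between centres, chr5:141311452-141311602 (197 bp) and chr8:74012375-74012525 (240 bp). All 3 members were in a dexamethasone DHS, and those on chromosomes 5 and 8 in a vehicle DHS also. The chromosome 5 member had a GR centre 193 bp away, while the nearest GR peaks of the other two were 31944 and 83321 bp away.

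Members had members as neighbours more often, and dexamethasone-only peaks less often, than their shares of the merged set. Among the peaks adjacent to a member in the merged set and within 10 kb (1487 adjacencies), 13.7% were members, 76.3% both-list peaks and 9.95% dexamethasone-only peaks. Next to both-list peaks (15959 adjacencies) these shares were 7.11%, 75.8% and 17.1%, and in the merged set as a whole 8.64%, 73.1% and 18.3%. Next to dexamethasone-only peaks 3.78% were members and 26.4% of their own class. Within 100 kb the shares next to members were 12.7%, 74.3% and 13.1%. These shares describe the order along chromosomes, and adjacent peaks are not independent.

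Members stood somewhat more alone than peaks of both lists. The nearest both-list C/EBPβ peak was a median of 16699 bp away (quartiles 4066 and 59216 bp), against 9079 bp between both-list peaks. No other C/EBPβ peak of any class lay within 100 kb of 294 members (12.2%) and of 1142 both-list peaks (5.62%), a difference of 6.62 points (5.33 to 8.03). Distance to retained binding went with accessibility in no simple order. A vehicle DHS covered 74.2% (71.4 to 76.9) of the 982 members with a both-list peak within 10 kb, 63.3% (60.3 to 66.3) of the 1004 with one at 10 to 100 kb, and 68.4% (63.8 to 72.7) of the 415 with none within 100 kb. The first of these exceeded the next by 10.9 points (6.82 to 14.9). The vehicle-only DHS shares were 12.9%, 14.2% and 15.4%, with overlapping intervals.

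Of the 667 members outside every DHS, 92 (13.8%) lay within 500 bp of one, and the median distance of the 667 to the nearest DHS centre was 5072 bp. They lay a median of 20820 bp from a both-list C/EBPβ peak and 107738 bp from a dexamethasone-only one, and members in DHS of both lists lay 13575 and 144767 bp away. The opposite case, a C/EBPβ peak in a DHS that appeared, was infrequent for members and for retained peaks alike. A dexamethasone-only DHS covered 3.17% of members and 4.56% of both-list peaks (difference -1.39 points, -2.09 to -0.57). For dexamethasone-only peaks the share was 15.3%. A dexamethasone-only DHS held a member in 76 cases, of which 1 held a GR peak (1.32%, 0.233 to 7.08), whereas 1788 of all 15076 dexamethasone-only DHS did (11.9%). These 76 DHS had a median width of 437 bp, against 476 bp for all dexamethasone-only DHS.

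Members were spread thinly over the genome. They fell into 2065 windows of 100 kb, of which 1772 held 1 member, 257 held 2 and 36 held 3 or more, and these 36 windows contained 4.79% of all members. A both-list C/EBPβ peak was present in 1428 of the windows (69.2%), a GR peak in 929 (45.0%) and a dexamethasone-only C/EBPβ peak in 548 (26.5%). Of the 8575 windows with a both-list peak, 54.5% held GR and 32.3% a dexamethasone-only peak. Most windows thus held a single member, and most also held a C/EBPβ peak of both lists.

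The window with most members ran from 77200000 to 77300000 on chromosome 14. It held 6 members, 8 both-list peaks, 4 GR peaks and 0 dexamethasone-only C/EBPβ peaks, and 1 of its 13 vehicle DHS was vehicle-only. Of the 6 members, 4 lay in DHS of both lists and 2 in none. A pair of the members, at chr14:77211779-77211929 and chr14:77212121-77212271, lay within 500 bp of each other.

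Windows with 4 members numbered 4, and they differed in accessibility. From 72700000 on chromosome 2, all 4 members, within chr2:72723905-72732091, lay outside every DHS, in a window with 3 both-list C/EBPβ peaks and 3 GR peaks. From 80900000 on chromosome 4, all 4 were in DHS of both lists, 2 of them in the same site at chr4:80953390-80954063 (673 bp), and the window had no GR peak and no DHS that was in 1 list only. From 17400000 on chromosome 5 there was no both-list peak at all, and 3 of the 8 vehicle DHS were vehicle-only. From 4000000 on chromosome 11, 4 of 15 vehicle DHS were vehicle-only, and 1 of the 11 dexamethasone DHS was dexamethasone-only. None of these 4 windows held a dexamethasone-only C/EBPβ peak.

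Vehicle DHS with 2 members numbered 17. The first 5 in chromosome order, chromosome 18 left out, were at chr2:117601603-117602562 (959 bp), chr3:59697046-59697687 (641 bp), chr3:83909641-83910455 (814 bp), chr4:80953390-80954063 and chr4:129597627-129599235 (1608 bp). All 5 overlapped a dexamethasone DHS. None held a both-list C/EBPβ peak or a GR peak, so none of their vehicle C/EBPβ peaks was in the dexamethasone list while the site was still called accessible.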

How the data were processed

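The deposited files are 5 lists of mm9 intervals, and what the authors provide in them is a position and an identifier for each region. Per the submitters' processing notes, CASAVA 1.8 and build mm9 were used. Which aligner, peak caller and threshold made the lists, and whether replicates were pooled, is not given in the sources used here. Both C/EBPβ lists use 1 set of identifiers, and no 2 intervals of the merged set overlap. Intervals were treated as starting at 0-based positions and printed as in the files. Regions overlapped when they shared at least 1 bp. Members, comparisons and lists were chosen with earlier results of these data known. Named regions followed a rule: the 5 windows of 100 kb with most members, up to 5 DHS with most members, the 5 most narrowed and 3 most widened sites, the 3 widest vehicle-only DHS and the 3 members nearest a gained peak, without chromosome 18. Motifs and genes near members were planned but not analysed here, nor were the adenovirus, polymerase and input samples. Overlap counts equalled those of bedtools 2.31.1, and a share of 30% planted among 2000 simulated regions came back as 30%. The tools were pandas 2.3.3, scipy 1.17.1 and numpy 2.4.6 under Python 3.11.15, with figures drawn in matplotlib 3.10.9.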

Additional observations from a re-analysis of the deposited data

How the results depend on the processing

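Differences between members and the other C/EBPβ classes (vehicle DHS, vehicle-only DHS, no DHS, GR) were recomputed with other overlap rules (over 50% of the shorter interval, the centre inside, within 500 bp), on autosomes, with DHS above the median width, with all peaks at 150 bp, and without DHS of the 2 recurring exact widths, chromosome Y and 6 windows with over 22 DHS. Of the 56 values, 54 kept their sign and their position relative to 0, but with DHS above the median width several sizes moved by over 1.5 times: against both lists to -24.7 (vehicle DHS), 5.13 (vehicle-only DHS) and 31.0 points (no DHS), and against dexamethasone-only peaks to 30.9 points (no DHS). The exceptions concern the vehicle DHS share against dexamethasone-only peaks, which became -0.825 points (-3.00 to 1.31) within 500 bp and -14.0 points (-16.3 to -11.6) with DHS above the median width, a setting that drops narrow DHS. The members' own shares moved beyond their counting interval in the same settings. Within 500 bp they were 72.6% (vehicle DHS), 16.0% (vehicle-only DHS), 23.95% (no DHS) and 3.50% (GR), and with wide DHS 34.4% (vehicle DHS) and 61.4% (no DHS). With wide DHS, vehicle-only DHS were called anew among the wide ones. A wide vehicle DHS that overlapped only narrow dexamethasone DHS was then counted as vehicle-only, and a peak in narrow DHS alone as lying in no DHS. The median log2 width ratio of matched DHS with a member was between -0.13 and -0.12 in the 4 alternatives tried (1 C/EBPβ peak per DHS, autosomes, no GR, peak in the common part), and its difference from DHS without C/EBPβ was -0.12 by width decile. Excluding members within 500 bp of a dexamethasone peak left 2258. No paired analysis was possible because the lists carry no replicate, and none could be left out for the same reason. Peak heights and depth are unknown, so members near the calling threshold could not be separated from the rest.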
